A study of Mus musculus with 4 samples.

Results

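Voltage-gated sodium channels were followed through 8 genes, the alpha subunits Scn1a, Scn2a, Scn3a, Scn7a, Scn8a and Scn9a and the beta subunits Scn2b and Scn3b. All probe sets that the platform annotation pairs with 1 of these symbols alone were taken, which gave 27 probe sets of 34945 and 8 genes of 18193. The genes were chosen with the comparison of the genotypes known, so their differences between genotypes are given as a description and support no claim about the family.

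Aortas were taken at 6 weeks of age from mice with a smooth-muscle-specific knockout of Smad4 (Smad4-KO) and from wild type littermates (WT). Smad4 is the common partner of the receptor-activated Smad proteins of TGF-beta and BMP signalling. Each genotype had 2 arrays, numbered replicate 1 and replicate 2, and each array received 400 ng of total RNA from a pool of 3 to 5 vessels. The labels do not name the promoter that drove the deletion, and other cells of the vessel wall keep an intact gene. Because whole vessels were measured, fewer or more cells of a type and less or more RNA per cell cannot be told apart. The values are probe set signals in linear units. A value after ± is the standard error of a log2 difference, Smad4-KO minus WT, from limma over 2 and 2 arrays. Its variance is moderated toward a value common to everything tested, so it is not the spread between pools of a single gene alone.

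A voltage-gated sodium channel is built from a large alpha subunit, which forms the pore and senses voltage, and smaller beta subunits, single-pass membrane proteins with an immunoglobulin-like domain that adjust gating and placement of the channel. The channels open on depolarisation and carry the rising phase of the action potential in nerve, heart and skeletal muscle. In the wall of an artery they are best known from the axons of perivascular, mostly sympathetic, nerves.

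Several measures of the whole arrays bear on these values. The Smad4 probe sets gave 658 and 942, 2018 and 4166, and 2676 and 3580 on the Smad4-KO arrays, against 1213 and 1778, 4306 and 3550, and 4394 and 3819 on the WT arrays. The Smad4-KO arrays lay below the WT arrays in 2 of these 3 probe sets, and the deleted exons are not named in the labels, so a probe set outside them would check nothing. Median signals were 133 and 137 on the Smad4-KO arrays and 111 and 132 on the WT arrays. The 3′ to 5′ signal ratio of the labelling spike Dap was 3.11 and 16.9 on Smad4-KO replicates 1 and 2, and 11.1 and 2.75 on WT replicates 1 and 2, so each genotype had an array of high and an array of low ratio. The Xist signal, which marks RNA of females, was 6223 and 135 on the Smad4-KO arrays and 15192 and 90.0 on the WT arrays, so the pools differed in sex within each genotype and replicate 1 was the array of high Xist in both. Differences are also given between arrays alike in the labelling ratio, Smad4-KO replicate 1 against WT replicate 2 and Smad4-KO replicate 2 against WT replicate 1. Each of these pairs sets an array of high Xist against an array of low Xist, so genotype is mixed with sex in both. Arrays alike in Xist are those of the same number, and these differ in the labelling ratio. Noise was greatest at low signal. For probe sets with a mean signal below 64, replicate arrays differed on the log2 scale with an SD of 1.87 in Smad4-KO and 1.71 in WT, whereas from 1024 upwards the SD was 0.74 in Smad4-KO and 0.62 in WT. Of the 27 sodium channel probe sets, 8 read at least 64 on every array and 9 read below 64 on every array.

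Most of the sodium channel probe sets gave higher signals in the Smad4-KO aortas, and Scn2a stood on the other side. Both Smad4-KO arrays lay above both WT arrays for 17 of the 27 probe sets, where 21.5% of all probe sets with 1 symbol did so, and below them for 2, where 19% of all did so. Both probe sets that were lower belonged to Scn2a, and the groups overlapped for the other 8. Of the 8 genes, 6 passed the filter on low signal and were tested in limma, and 3 of the 6 were past an adjusted p of 0.05 in the fit of all genes, all of them higher in Smad4-KO: Scn9a, Scn3a and Scn2b. In that fit of 13645 genes, 6.31% were past the threshold, made up of 4.92% with higher and 1.39% with lower signal in Smad4-KO. None of the 3 stayed past it without WT replicate 2, without the filter, or with a block for arrays alike in labelling ratio. Scn2b also lost its call without Smad4-KO replicate 1 and without WT replicate 1. Without the filter, or with that block for labelling ratio, 0 of all genes were past the threshold, so the loss there was not particular to the 3. Scn1a and Scn8a did not pass the filter, and a gene dim in WT could pass it only through a high signal in Smad4-KO. The median log2 difference of the 6 genes was 1.96, beside -0.01 for all genes tested. In the fit of single probe sets, 1 of 14 tested sodium channel probe sets was past the threshold, that of Scn3a, where 0.782% of all 26209 probe sets were (0.702% higher and 0.0801% lower in Smad4-KO).

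**Figure D1:**
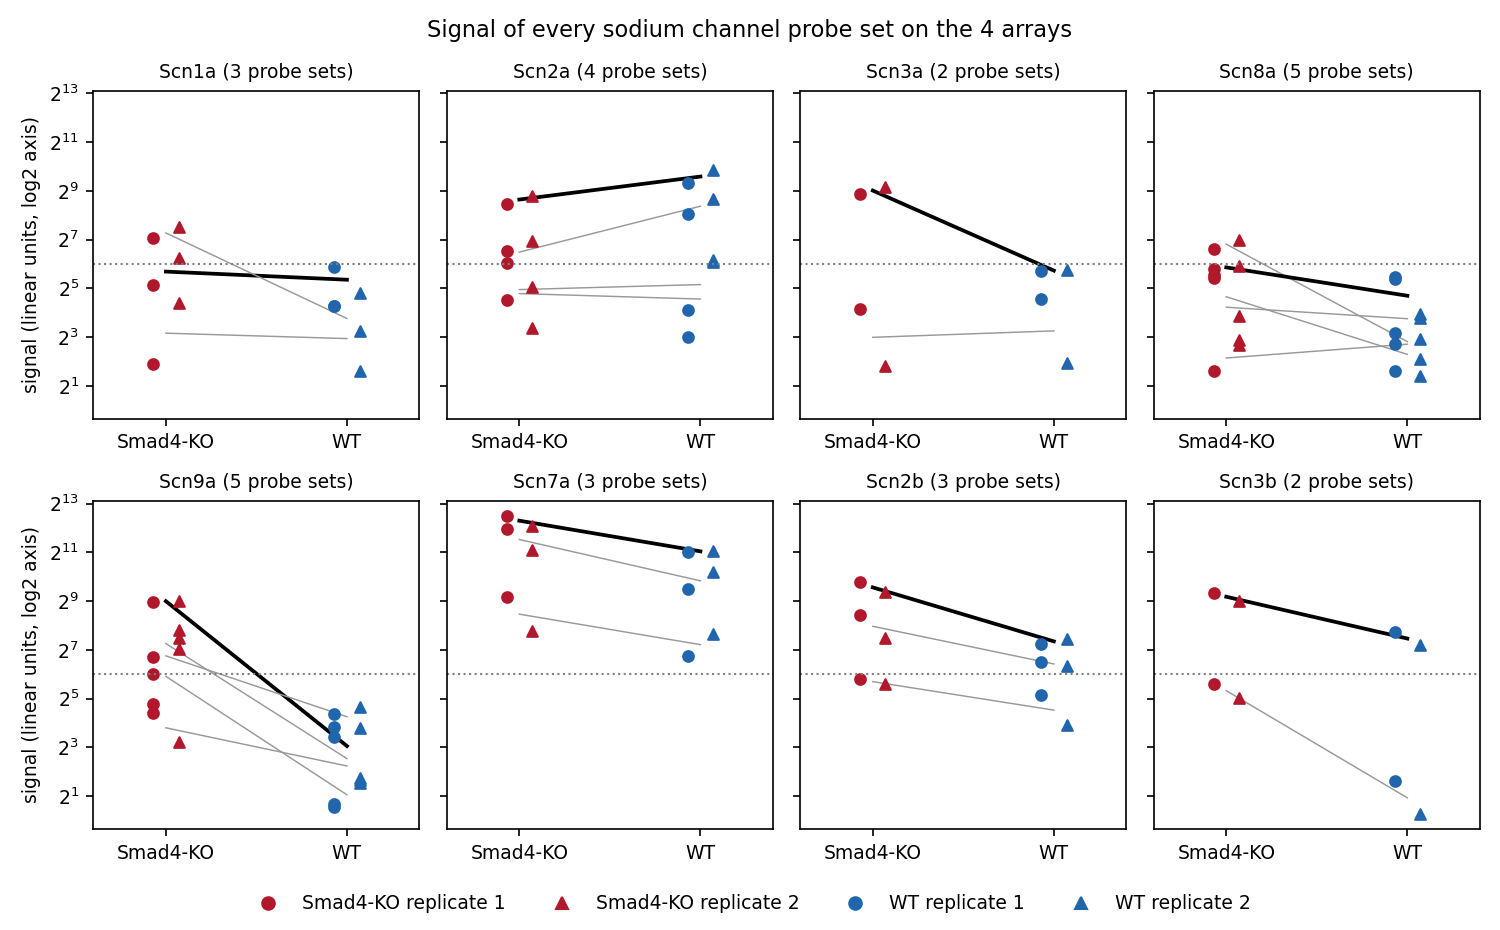
Signal of each of the 27 sodium channel probe sets (vertical axis, linear units on a log2 axis) on the 2 Smad4-KO and the 2 WT arrays, 1 panel per gene. Points are arrays, lines join the geometric means of the groups, the thick line is the probe set of highest mean signal, and the dotted line marks a signal of 64. Scn9a and Scn3a fall below 64 on the WT arrays, while Scn2a is the gene whose thick line runs lower in Smad4-KO.

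Among the alpha subunits, Scn9a encodes a channel of peripheral sensory and sympathetic neurons, whose loss in humans abolishes the sense of pain. Its probe set of highest signal (1442810_x_at) read 504 and 519 in Smad4-KO, against 20.9 and 3.32 in WT. The Smad4-KO arrays were close to each other, and the WT arrays were both dim and differed from each other by 2.66 on the log2 scale. The log2 difference was 5.94 ± 0.85 (95% interval 3.80 to 8.08). With signals under 64 raised to 64, Scn9a was at least 7.99-fold higher in Smad4-KO. The suffix x in the name of this probe set marks probes that may bind other transcripts too, so the other 4 probe sets of the gene matter.

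Those 4 probe sets of Scn9a read lower and pointed the same way. Probe set 1442809_at read 105 and 224 in Smad4-KO, against 10.8 and 3.15 in WT. Probe set 1457819_at read 65.3 and 179 in Smad4-KO, against 14.5 and 25.3 in WT, a log2 difference of 2.50 ± 0.62. Probe set 1442333_a_at read 27.4 and 133 in Smad4-KO, against 1.49 and 2.92 in WT. These probe sets separated the genotypes, and no WT array reached 64 in any of them. Probe set 1421660_at read below 64 on all arrays (21.1 and 9.25 in Smad4-KO, 1.59 and 14.0 in WT), and its groups overlapped. Between arrays alike in the labelling ratio, the difference of the brightest Scn9a probe set was 7.25 (Smad4-KO replicate 1 minus WT replicate 2) and 4.63 (Smad4-KO replicate 2 minus WT replicate 1).

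Scn3a encodes a channel of embryonic and early postnatal neurons, which in rodents reappears in adult neurons after nerve injury. Probe set 1439204_at read 468 and 570.0 in Smad4-KO, against 52.4 and 53.9 in WT. The replicates of each genotype lay close together and the groups were far apart. The log2 difference was 3.28 ± 0.30 (95% interval 2.53 to 4.03), which is at least 8.07-fold with the floor of 64. The arrays alike in labelling ratio gave 3.12 and 3.44. The second Scn3a probe set (1421705_at) read 17.8 and 3.57 in Smad4-KO and 23.6 and 3.89 in WT, so that it stayed below 64 everywhere and did not separate the genotypes. The Scn3a difference therefore rests on 1 probe set, and with the mean of both probe sets it was 1.51 and no longer past the threshold.

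Scn2a encodes a channel of axon initial segments and unmyelinated axons in the brain, and it was the only one of the 8 genes whose brightest probe set was lower in Smad4-KO. Probe set 1435933_at read 357 and 449 in Smad4-KO, against 646 and 916 in WT. A dimmer one, 1427280_at, read 65.5 and 123 in Smad4-KO, against 269 and 408 in WT. In each of them the genotypes were separate, with Smad4-KO below WT. The log2 differences were -0.94 ± 0.34 (95% interval -1.80 to -0.09) and -1.88 ± 0.47, and neither was past the threshold in its fit. Between arrays alike in labelling ratio, the brighter probe set gave -1.36 and -0.53, and the dimmer one -2.64 and -1.13. The other two Scn2a probe sets overlapped between the genotypes, with 91.7 and 10.5 in Smad4-KO against 17.6 and 72.7 in WT for 1427281_at, and 22.8 and 33.5 in Smad4-KO against 8.16 and 68.6 in WT for 1445259_at. Summed smooth muscle markers were also lower in Smad4-KO (65151 and 71752, against 146039 and 173562 in WT), and their part in the Scn2a difference was not tested.

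Scn1a encodes a channel of neuron cell bodies and axons, known in the brain from fast-spiking inhibitory neurons, and its probe sets disagreed. Probe set 1450121_at read 132 and 181 in Smad4-KO, against 19.7 and 9.42 in WT, a log2 difference of 3.51 ± 0.49 in the fit of single probe sets and at least 2.42-fold with the floor of 64. The probe set with the highest mean over the 4 arrays, 1450120_at, read 34.9 and 76.5 in Smad4-KO and 59.7 and 28.2 in WT, so that its groups overlapped. The last, 1441728_at, stayed below 64 on all arrays and overlapped as well. Scn1a was below the filter of genes by its brightest probe set. Probe set 1450121_at, which separated the genotypes, had a lower mean over the 4 arrays and would have been below that filter too.

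Scn8a encodes the main channel of the nodes of Ranvier in mature myelinated axons. Probe set 1423515_at read 99.5 and 127 in Smad4-KO, against 6.53 and 7.64 in WT, which is at least 1.76-fold with the floor of 64. This was the only one of the 5 Scn8a probe sets to reach 64 on any array. Of the other 4, 2 had both Smad4-KO arrays above both WT arrays and 2 overlapped, with log2 differences between -0.57 and 2.36 at signals where replicates of a genotype differed by up to 3.29. No difference of Scn8a can be sized from such signals, beyond the bound given.

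Scn7a is the atypical alpha subunit. It is not opened by voltage, it acts as a sensor of extracellular sodium in glia of the mouse brain, and it is expressed in Schwann cells. All 3 of its probe sets read above 64 on every array and separated the genotypes. Probe set 1436044_at read 5810.5 and 4369 in Smad4-KO, against 2067 and 2151 in WT. Probe set 1436043_at read 3955 and 2203 in Smad4-KO, against 718 and 1159 in WT, and 1427495_at read 579 and 216 in Smad4-KO, against 108 and 204 in WT. In the last of these the lower Smad4-KO array lay just above the higher WT array. The log2 differences were 1.26 ± 0.31 (95% interval 0.47 to 2.04, 2.39-fold), 1.69 ± 0.47 and 1.25 ± 0.63, none past the threshold. In contrast to Scn9a and Scn3a, Scn7a had signals well above 64 in WT too, so its fold needs no floor.

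**Figure D2:**
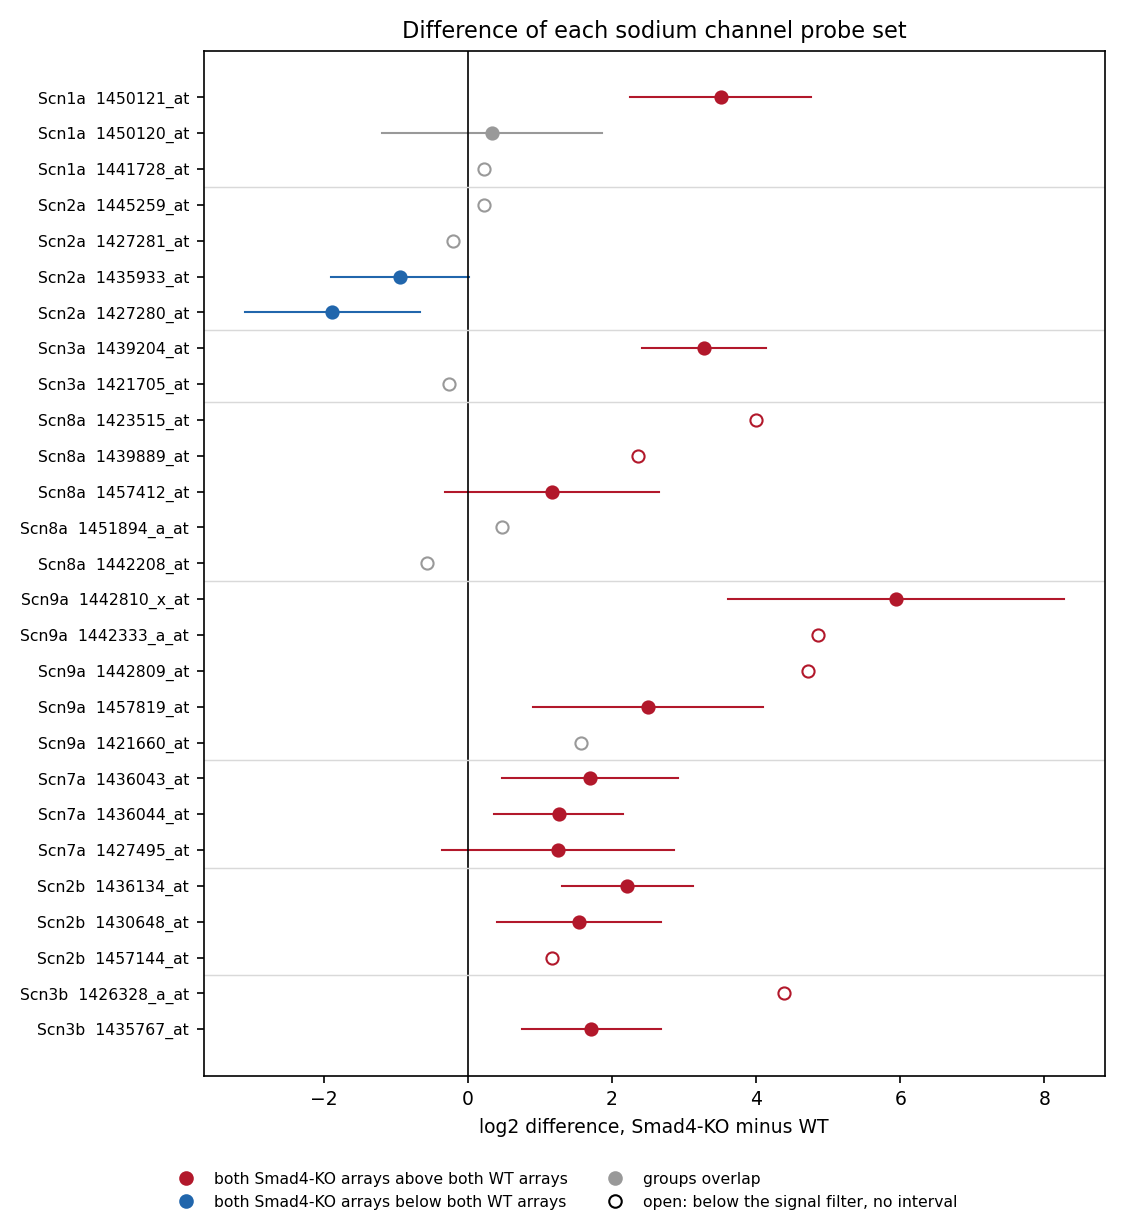
Log2 difference, Smad4-KO minus WT (horizontal axis), of each of the 27 probe sets, grouped by gene. Filled points were tested and carry the 95% interval of the fit of single probe sets, open points lay below the signal filter, and colour shows whether the 2 Smad4-KO arrays lie above, below or among the WT arrays. Points lie right of 0 for 22 probe sets and left of it for 5.

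Of the beta subunits, Scn2b encodes the one that is bound to the alpha subunit by a disulfide bridge. All 3 of its probe sets had both Smad4-KO arrays above both WT arrays. Probe set 1436134_at read 871 and 657 in Smad4-KO, against 153 and 175 in WT. The log2 difference was 2.21 ± 0.32 (95% interval 1.41 to 3.01), or 4.64-fold, on signals above 64 throughout. Probe set 1430648_at read 346 and 181 in Smad4-KO, against 91.4 and 80.7 in WT, a log2 difference of 1.54 ± 0.44. Probe set 1457144_at stayed below 64, at 55.5 and 48.6 in Smad4-KO and 35.6 and 15.0 in WT. Scn2b differed by 2.32 and 2.11 between arrays alike in labelling ratio.

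Scn3b encodes a beta subunit that binds the alpha subunit without a covalent bond. Probe set 1435767_at read 647 and 521 in Smad4-KO, against 213 and 147 in WT. The groups did not overlap, the log2 difference was 1.71 ± 0.34 (95% interval 0.85 to 2.57, 3.28-fold), and it was not past the threshold, except with the replicate number as a block and in 3 other refits. The second Scn3b probe set, 1426328_a_at, read 49.2 and 32.8 in Smad4-KO, against 3.05 and 1.20 in WT, below 64 on every array. Arrays alike in labelling ratio gave 2.14 and 1.29 for the brighter probe set.

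The remaining channels of the family did not separate in the same way, as far as they were measured. Scn10a, a channel of pain-sensing neurons that resists tetrodotoxin, was below the filter, with 15.3 and 2.55 in Smad4-KO against 12.2 and 17.2 in WT. Scn11a, another such channel, read 59.2 and 49.7 in Smad4-KO against 50.2 and 52.1 in WT. It had a log2 difference of 0.08 ± 0.30 (limma, adjusted p = 0.936) that turned to -0.070 with median centring and to -0.024 with quantile normalization. Scn4b, another beta subunit, read 49.0 and 58.5 in Smad4-KO against 57.6 and 87.1 in WT (-0.40 ± 0.35, adjusted p = 0.666). Nalcn, a sodium leak channel, read 590.3 and 600.0 in Smad4-KO against 1014 and 1213 in WT, a difference of -0.90 ± 0.30 that did not pass the test either (adjusted p = 0.179). Its groups did not overlap. In all, 0 of 3 tested genes of this list passed in limma, and 1 had an unadjusted p under 0.05, as did 19.3% of all genes tested.

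Some of the proteins known to anchor, bind or regulate sodium channels passed the test. Of 19 anchors, partners and regulators with a probe set, 17 were tested, 2 rose, 1 fell and 14 did not pass. Thus 17.6% were called beside 6.31% of all genes, with a median log2 difference of 0.50. Both Smad4-KO arrays lay above both WT arrays for 9 of the 17 and below for 1, where 25.9% and 21.4% of all genes tested did so. An unadjusted p under 0.05 in limma was reached by 8, where 19.3% of all genes had such a p. Cntn1, a cell adhesion protein of the node of Ranvier region that binds beta subunits, read 1349 and 766 in Smad4-KO, against 56.8 and 48.4 in WT, and rose by 4.28 ± 0.39 (adjusted p = 0.0125), which is at least 15.9-fold with the floor of 64. Nrcam, a nodal adhesion protein that also binds ankyrin, read 357 and 351 in Smad4-KO, against 54.2 and 49.6 in WT, and rose by 2.77 ± 0.29 (adjusted p = 0.0136), at least 5.53-fold with the floor. Fgf13, an intracellular FGF homologue that binds the channels' carboxy terminus, fell by 2.45 on the log2 scale (± 0.30, adjusted p = 0.0178), with 215 and 179 in Smad4-KO and 1106 and 1038 in WT. Ank3, the ankyrin that anchors the channels at axon initial segments and nodes, was picked after its values were seen. It read 977 and 2705 in Smad4-KO, against 521 and 190 in WT, and its difference of 2.37 ± 0.69 did not pass (adjusted p = 0.131), although it did with the replicate block (adjusted p = 0.0406).

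Potassium channels, which end the action potential, were represented by 11 tested genes of axons and neurons. Of these, 3 rose and 1 fell (36.4% called, beside 6.31% of all genes, median 0.86). An unadjusted p under 0.05 in limma was reached by 7 of the 11, where 19.3% of all genes had such a p. Kcnq3, a subunit of the M current of neurons, read 557 and 1032 in Smad4-KO, against 43.5 and 18.8 in WT (4.73 ± 0.54, adjusted p = 0.016), which is at least 11.8-fold with the floor of 64, and it passed the signal filter through its Smad4-KO values. Kcnab2, an auxiliary subunit of axonal potassium channels, read 386 and 465 in Smad4-KO, against 85.5 and 52.9 in WT (2.65 ± 0.37, adjusted p = 0.0209). Kcna1, an axonal channel beside the node, read 1269 and 1098 in Smad4-KO, against 337 and 435 in WT (1.62 ± 0.32, adjusted p = 0.0471). Kcnh2, a channel best known from the repolarisation of heart muscle, fell by 1.69 on the log2 scale (± 0.32, adjusted p = 0.0435), with 242 and 227 in Smad4-KO and 883 and 649 in WT. Without WT replicate 2, 0 of the genes in any of these lists passed. Neither Kcna1 nor Kcnh2 passed with any 1 array left out or with median centring.

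Of 8 neuronal calcium channel genes, none passed the test in limma (median 0.74), although both Smad4-KO arrays lay above both WT arrays for 4 of the 8, where 25.9% of all genes tested did so and 21.4% lay wholly below. Their count at an unadjusted p under 0.05 was 4, where 19.3% of all genes had such a p. Among 3 sodium pump subunits tested, Atp1b1 rose, with 4783 and 4183 in Smad4-KO against 818 and 1196 in WT (2.18 ± 0.34, adjusted p = 0.0272). It did not pass without Smad4-KO replicate 1 or without either WT replicate. Rest, the repressor that keeps many neuronal genes silent outside the nervous system, read 880.5 and 696 in Smad4-KO and 542 and 848 in WT. Its difference was 0.21 ± 0.36 (adjusted p = 0.86; -0.12 without WT replicate 1). Of the 9 genes of the Rest complex, 0 passed the test in limma and 0 had an unadjusted p under 0.05 (19.3% of all genes), and their median was -0.13.

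**Figure D3:**
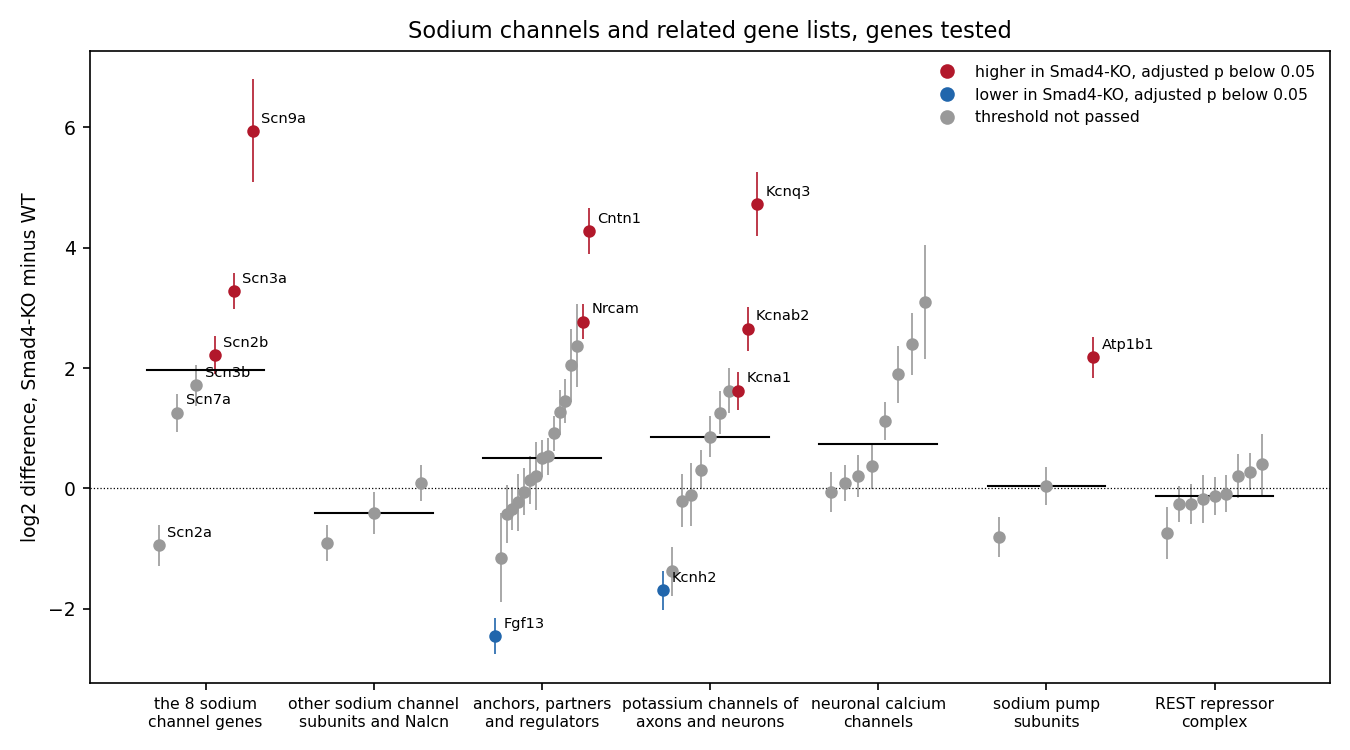
Log2 difference, Smad4-KO minus WT (vertical axis), of the genes tested in each list, with standard errors from limma; horizontal bars are list medians and colours mark genes past an adjusted p of 0.05. The sodium channel genes span -0.94 (Scn2a) to 5.94 (Scn9a), and the medians of the other lists lie between -0.40 and 0.86.

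Markers of nerve cells, of glia and of some other cells of the vessel differed between the same arrays. Here a marker was counted as higher or lower only if past an adjusted p of 0.05 in limma. Of all genes tested, 4.92% were higher and 1.39% lower by this measure. Markers not counted could still differ, in either direction. Of 14 neuron markers, 12 were higher in Smad4-KO, with summed signals of 43354 and 35923 in Smad4-KO and 2764 and 2329 in WT. The neuron markers not counted were Elavl3, with a log2 difference of 1.87, and Rbfox3, with -0.60. Rbfox3 read 84.5 and 72.1 in Smad4-KO and 127 and 109 in WT. Of 11 sympathetic neuron markers, 10 were higher, with sums of 47086 and 48072 in Smad4-KO and 2282 and 1488 in WT. No marker of either list was below 64 on both Smad4-KO arrays, and 1 in each list, Elavl4 and Chrnb4, was below 64 on both WT arrays. Of 9 Schwann cell markers, 3 were higher, with sums of 13786 and 14041 in Smad4-KO and 11728 and 11607 in WT. Much of these sums came from Pmp22, which read 6947 and 8428 in Smad4-KO and 9820 and 9502 in WT. The median log2 difference of the Schwann cell markers was 1.37. Of those not counted, Erbb3 (1.44), Mal (1.37), Gfra3 (0.75) and S100b (0.58) had positive differences. Sox10 (-0.74) and Pmp22 (-0.34) had negative ones. Sox10 read 61.3 and 104 in Smad4-KO and 120 and 150 in WT. Of 10 macrophage markers 6 were higher (sums of 40818 and 64061 in Smad4-KO and 12388 and 7692 in WT), and of 8 smooth muscle markers 5 were lower (65151 and 71752 in Smad4-KO, 146039 and 173562 in WT). Skeletal muscle markers summed to 1071 and 13203 in Smad4-KO and 998 and 682 in WT, so Smad4-KO replicate 2 stood apart. None was counted among 5 endothelial (median log2 difference -0.49), 5 fibroblast (0.10) and 3 fat cell markers (-0.07). Of 5 heart muscle markers tested, 1 was lower (median -0.94). The part of these cell types in the sodium channel differences was not tested.

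The genes lie together in the genome. Scn3a, Scn2a, Scn1a, Scn9a and Scn7a follow one another in this order on mouse chromosome 2, with 3 other protein-coding genes between Scn2a and Scn1a, while Scn2b and Scn3b are on chromosome 9 and Scn8a on chromosome 15. Direct neighbours differed in direction by their brightest probe sets: Scn3a was higher and Scn2a lower in Smad4-KO. The Scn2a difference was not past the threshold (limma, adjusted p = 0.213), and that of Scn3a rests on 1 of its 2 probe sets. The genes between were picked after the values of the cluster were known. Csrnp3, a transcription regulator, read 152 and 97.0 in Smad4-KO, against 23.9 and 23.3 in WT, and rose (2.37 ± 0.35, adjusted p = 0.0241). With signals under 64 raised to 64 its difference was 0.93 and did not pass (adjusted p = 0.207). Galnt3, an enzyme that starts O-linked glycans, read 145 and 156 in Smad4-KO, against 34.1 and 36.8 in WT, and rose (2.09 ± 0.29, adjusted p = 0.0217), but with the floor its difference was 1.24 and did not pass (adjusted p = 0.0603). Neither passed without WT replicate 1 or without WT replicate 2, and both passed the signal filter through their Smad4-KO values. Ttc21b, a protein of cilia, read 461 and 440.0 in Smad4-KO against 559 and 578 in WT (-0.33 ± 0.29, adjusted p = 0.666). Of the 5 nearest protein-coding genes on each side of the cluster, 10 in all, 5 were tested and 0 passed in limma. An unadjusted p under 0.05 in limma was reached by 3, where 19.3% of all genes had such a p. These 3, Grb14 (-1.63), Cobll1 (-0.77) and B3galt1 (-1.72), had lower signals in Smad4-KO, while Fign (0.69) and Stk39 (0.47) went the other way.

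**Figure D4:**
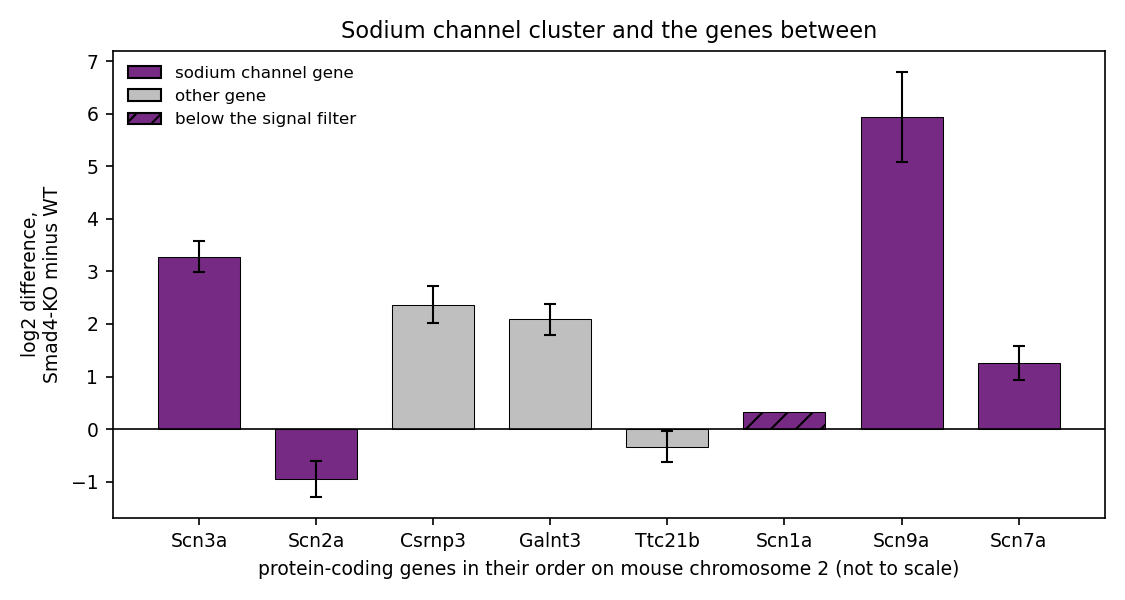
Log2 difference, Smad4-KO minus WT (vertical axis), of the probe set of highest mean signal of the 8 protein-coding genes from Scn3a to Scn7a, in their order on mouse chromosome 2; bars start at 0 and error bars are standard errors from limma. Scn9a has the tallest bar at 5.94, measured against WT signals under 64 (3.00 with the floor), and Scn2a and Ttc21b lie below 0; the hatched Scn1a was below the signal filter and has no error bar.

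Windows around the transcription starts of 6 of the 8 genes were found in RefSeq (8 windows, GRCm38.p6), each from 250 bases before to 50 after the start. Those of 3 cluster genes are shown because their values differ in kind: Scn9a, dim in WT and bright in Smad4-KO (chr2:66634913-66635212, minus strand), Scn7a, read well above 64 on all arrays (chr2:66784861-66785160, minus strand), and Scn2a, which was lower (chr2:65620519-65620818, plus strand, the upstream start of 2). Capitals mark matches on either strand to the motifs searched.
Scn9a: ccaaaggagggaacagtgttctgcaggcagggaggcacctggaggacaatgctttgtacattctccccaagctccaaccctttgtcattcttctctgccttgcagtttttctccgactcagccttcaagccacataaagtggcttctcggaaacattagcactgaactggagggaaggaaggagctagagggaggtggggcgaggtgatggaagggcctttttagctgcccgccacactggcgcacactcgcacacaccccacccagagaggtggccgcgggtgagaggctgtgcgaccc
Scn7a: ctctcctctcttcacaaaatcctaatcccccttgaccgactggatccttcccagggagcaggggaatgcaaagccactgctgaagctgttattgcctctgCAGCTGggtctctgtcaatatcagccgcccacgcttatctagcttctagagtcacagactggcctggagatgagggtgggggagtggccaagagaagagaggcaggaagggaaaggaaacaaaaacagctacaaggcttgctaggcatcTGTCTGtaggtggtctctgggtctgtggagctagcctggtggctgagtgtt
Scn2a: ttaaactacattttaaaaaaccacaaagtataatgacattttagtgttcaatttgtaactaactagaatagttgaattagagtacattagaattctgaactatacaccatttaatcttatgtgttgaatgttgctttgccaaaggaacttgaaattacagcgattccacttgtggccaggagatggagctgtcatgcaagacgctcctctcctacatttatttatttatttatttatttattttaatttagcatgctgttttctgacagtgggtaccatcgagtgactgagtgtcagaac
The motifs were CAGACA, the Smad box, then GGCGCC, a GC-rich Smad site, then TGACGT, the core of the cyclic AMP response element, then the E-box CAGCTG, and last CAGCACC, a part of the site bound by Rest. No matches overlapped. The Scn7a window held CAGCTG and, on the other strand, CAGACA, and the windows of Scn9a and Scn2a held none of the 5 motifs. Among the 8 windows the Smad box was found in 1, against 21.0% of all 32851 windows, and the E-box in 1, against 16.3%. The GC-rich Smad site was in 1, a window of Scn8a, against 11.9%. The cyclic AMP core was in 0 of the 8, against 7.51%, and the Rest motif in 0, against 7.14%. The windows shown held 9 (Scn9a), 3 (Scn7a) and 3 (Scn2a) CpG dinucleotides, where the median of all windows was 7. The downstream window of Scn2a, not shown, held 9, so its CpG count depends on the start chosen.

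Some genes had nearly the same profile over the 4 arrays, measured as the Euclidean distance between log2 values centred on each gene's mean. Nearest to Scn7a were Zwilch (0.05), Prepl (0.08) and Abca1 (0.09). Nearest to Scn2b were Adgre4 (0.15), Clstn2 (0.17) and Atp6v1b2 (0.19). Nearest to Scn3b were Tlr6 (0.08), Nxpe3 (0.09) and Syngr3 (0.11). Adgre4, for instance, read 297 and 251 in Smad4-KO, against 50.9 and 59.8 in WT. With 4 arrays and 13645 genes, profiles this close are a description only.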

How the data were processed

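Gene expression was measured on 4 Affymetrix mouse arrays, 1 for each pool of aortas. The authors deposited 1 linear intensity value per probe set and array, and the submitters' processing notes name Affymetrix Expression Console and RMA, with no version. RMA gives log2 values, whereas these were linear, and their mean after trimming 2% of the values at each end was 500.0 on every array. Detection calls, the scanner files and a genome build were not used here. Of 45101 probe sets in the table, 34945 carried exactly 1 gene symbol, 932 carried several, 9160 carried none and 64 were controls. Only the first were used.

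After log2 transformation the brightest probe set (highest mean) stood for its gene, and genes under the 25th percentile of that mean (5.64) were left out, so 13645 genes were tested. In a separate fit each probe set stood alone, with 26209 tested above a mean of 5.25. Both used limma 3.58.1 in R 4.3.3 (lmFit, eBayes, genotype as the only term, two-sided), with Benjamini-Hochberg adjustment over everything tested and a threshold of 0.05. The limma procedure was tested on simulated data. Tables were built in Python 3.11.15 (pandas 2.3.3, numpy 2.4.6), and plots were drawn with matplotlib 3.10.9.

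The 8 sodium channel genes and the 6 related gene lists were chosen with earlier results of these data known. Within the lists, the text names up to 4 genes past the threshold, every measured gene of the list of other sodium channel subunits, and Rest. For the 3 sodium channel genes of highest mean signal in Smad4-KO, it names the 3 genes of most similar profile over the 4 arrays. Ank3 and the genes beside the sodium channel cluster were chosen after their values were seen. A signal of 64 served as a floor for lower bounds on folds. Promoter windows and gene order came from RefSeq (GRCm38.p6).

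No label says that the replicate numbers pair the arrays, although replicate 1 had the higher Xist signal in both genotypes, and the deviations of same-numbered arrays from their group means correlated at -0.01 over the genes tested.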

Additional observations from a re-analysis of the deposited data

How the results depend on the processing

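In each refit in which it was tested (15 for a gene, but 14 for Scn3a and 13 for Scn9a, which the stricter filter or the mean of probe sets left out), each of the 6 sodium channel genes kept its direction, Scn2a lower and the other 5 higher. Over these refits, the log2 differences ran from -1.19 to -0.69 for Scn2a, 1.51 to 3.42 for Scn3a, 1.05 to 1.46 for Scn7a, 3.00 to 7.27 for Scn9a, 1.64 to 2.42 for Scn2b and 1.45 to 3.05 for Scn3b. Scn3a was past the threshold in 10 of 14, Scn9a in 10 of 13, Scn2b in 9 of 15, Scn3b in 4 of 15, and Scn2a and Scn7a in 0 of 15. A signal below about 64 limits what can be said of Scn1a and Scn8a. The cause of the changes below was not tested, apart from those that follow from the number of genes or arrays entering a fit.

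The count of genes past the threshold, 861, was 1321 with a replicate block, with 4 sodium channel genes (Scn3b added), 3 calcium channels and 4 anchors higher. No label says that the numbers pair the arrays, though replicate 1 was the array of high Xist in both genotypes. The count was 518 with the mean of probe sets, which called 1 sodium channel gene (Scn3b) and 1 higher potassium channel. It called 0 sodium pump subunits and 0 lower genes in the anchor and potassium lists. The Scn3b mean, with the difference of 3.05, includes 1426328_a_at, which read below 64 on every array. The log2 difference of that probe set was 4.39, and 0 with the floor of 64. The count was 1403 at an adjusted p of 0.10, with 5 sodium channel genes and 2 calcium channels higher, and 205 with every probe set tested by itself. Without a filter it was 0 (limma, 2788 at an unadjusted p under 0.05), and it was also 0 when arrays alike in labelling ratio formed blocks, an alternative chosen after seeing the data (2658 at an unadjusted p under 0.05). In both, every list had 0 called. The filter at the 50th percentile left 0 higher anchors and 1 higher potassium channel. Median centring moved the median log2 difference of all genes to -0.16. Cyclic loess and median centring left 0 lower potassium channels. The calcium channels had 1 higher with cyclic loess and 1 with signals below 64 raised to 64.

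Leaving out 1 array gave 0 to 808 genes past the threshold: 0 without WT replicate 2 (1791 at an unadjusted p under 0.05), 270 without WT replicate 1. The lone array is then assumed to vary like the other group. Sodium channel genes called higher ranged from 0 to 3, anchors from 0 to 3 higher and 0 to 1 lower, potassium channels from 0 to 2 higher and 0 lower, and sodium pump subunits from 0 to 1. Directions turned for Scn11a (-0.024 with quantile normalization, -0.070 with median centring, -0.042 to 0.21 with 1 array left out), Rest (-0.12 to 0.53 with 1 array left out), and, with the mean of probe sets, Prepl (-0.0065) and Ttc21b (0.85).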
